A study of Mus musculus with 6 samples.

Results

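Genes of cholesterol synthesis, cholesterol efflux and sterol control were examined in abdominal aortas from Olfr2 KO mice (knockout, KO) and from wild type mice (WT). All aortas were taken 7 days after an aneurysm, a bulge of the vessel, had been induced. The group holds 32 genes, chosen by symbol from a table of 54532 genes: 18 of cholesterol synthesis, 5 of sterol control, 5 of efflux, and 4 that move or store sterol inside the cell. All 32 were present once in the table, and all 32 passed the filter on low counts. Each genotype had 3 libraries of bulk polyadenylated RNA, and both genotypes had undergone aneurysm induction, and tissue without an aneurysm was not analysed here. How the knockout was made, the way the aneurysm was induced, the strain, sex and age of the mice and how many animals went into a library are not given in these sources. The p-values below therefore measure the spread between these libraries.

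Olfr2, which encodes an olfactory receptor, had 0 counts in all 6 libraries, so its counts do not check the genotype labels. A count of 0 allows up to 3 counts, or 0.140 to 0.172 CPM (counts scaled to library size by TMM, a trimmed mean of ratios) in KO and 0.163 to 0.182 CPM in WT, for counting error only. The libraries held 17248918 to 21872027 counts. Of the tissue marker lists, smooth muscle markers summed to 2552 to 3667 CPM in KO and 1652 to 2189 CPM in WT, fibroblast markers to 35831 to 46343 CPM in KO and 43765 to 55018 CPM in WT, and endothelial markers to 646 to 835 CPM in KO and 606 to 872 CPM in WT, with no marker of these lists at 0. Hepatocyte markers summed to at most 0.516 CPM in KO and 0.230 CPM in WT. Of 8 adrenal cortex markers 1 passed the filter, Cyp11b2 was at 0 in all libraries, and the sum was at most 7.86 CPM in KO and 7.14 CPM in WT. Skeletal muscle markers summed to 1112 CPM in KO replicate 3 and to at most 6.50 CPM in the other KO libraries and 17.9 CPM in WT. Lyz2, the macrophage and granulocyte lysozyme gene, had 523 counts (31.7 CPM) in WT replicate 2, against 4128 to 5899 CPM in the KO libraries and 3871 and 4630 CPM in the other WT libraries. WT replicate 2 thus stood apart in this gene, and it was the highest library for 11 of the 32 sterol genes, where it was highest for 21.9% of all tested genes. Left out, it took the members at an unadjusted p under 0.05 to 1 (Srebf2), against 4 with all libraries.

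Cholesterol is built from acetyl-CoA through mevalonate, squalene and lanosterol. When sterol in the endoplasmic reticulum is low, the escort protein Scap carries the factor SREBP-2, encoded by Srebf2, to the Golgi apparatus, where it is cut and released to switch on the synthesis genes, and Insig proteins hold it back when sterol is plentiful. When sterol is in excess, oxysterols activate the LXR receptors, which switch on the efflux transporters Abca1 and Abcg1, and in artery walls macrophages that take up lipoproteins depend on these transporters to shed cholesterol.

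Promoters of these genes were searched for known control elements, and 3 are printed to show them. Hmgcs1 (chr13:119690101-119690400) is the synthesis gene whose promoter held the sterol element, Mvk (chr5:114444019-114444318) the one with the most CCAAT boxes, and Srebf2 (chr15:82147019-82147318) the SREBP-2 gene itself, all on the plus strand. Sequences are from RefSeq on GRCm38.p6 and run 5′ to 3′ along the gene, with 250 bases before its start and 50 after. Capitals mark TCACNCCAC, the core of a sterol regulatory element, and CCAAT, the box bound by the factor NF-Y, on either strand, so that ATTGG is CCAAT on the other strand.
Hmgcs1: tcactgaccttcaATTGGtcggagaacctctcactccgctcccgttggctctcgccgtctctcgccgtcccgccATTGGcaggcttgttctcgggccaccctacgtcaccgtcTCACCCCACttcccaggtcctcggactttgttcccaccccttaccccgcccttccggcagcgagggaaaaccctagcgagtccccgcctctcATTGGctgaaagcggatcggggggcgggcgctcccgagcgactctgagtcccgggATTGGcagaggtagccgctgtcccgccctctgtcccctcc
Mvk: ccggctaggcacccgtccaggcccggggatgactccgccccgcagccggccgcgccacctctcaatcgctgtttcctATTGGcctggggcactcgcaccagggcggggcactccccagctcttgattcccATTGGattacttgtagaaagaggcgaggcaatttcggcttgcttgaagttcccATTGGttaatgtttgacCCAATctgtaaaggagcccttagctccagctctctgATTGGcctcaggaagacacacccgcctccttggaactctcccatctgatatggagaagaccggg
Srebf2: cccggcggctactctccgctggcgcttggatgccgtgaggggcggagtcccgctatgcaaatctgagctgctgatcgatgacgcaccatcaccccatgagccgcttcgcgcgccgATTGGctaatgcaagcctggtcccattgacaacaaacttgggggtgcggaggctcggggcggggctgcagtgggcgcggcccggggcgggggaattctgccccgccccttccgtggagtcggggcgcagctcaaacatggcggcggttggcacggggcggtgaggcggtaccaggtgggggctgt
The sterol element core lay at positions -137 to -129 from the start of Hmgcs1.

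A promoter of RefSeq was found for 26 of the 32 genes, 35 promoters in all, since some genes have several starts. TCACNCCAC stood in 1 of these 35 and in 1.24% of all 32851 RefSeq promoters of the same length. CCAAT stood in 14 of 18 promoters of synthesis genes, in 1 of 5 of efflux genes and in 37.4% of all promoters. The Sp1 box GGGCGG stood in 15 of 18 synthesis promoters and in 35.7% of all. The E-box CACGTG stood in 7 of the 35, among them Insig1, Abca1, Sc5d and Dhcr7, and in 7.15% of all. These promoters belong to 6 genes, since overlapping promoters of Scap hold the same site. The consensus LXR direct repeat was in 0 of the 35 and in 0.0152% of all, which is 5 of 32851. At so low a share, 0 of 35 does not show that these genes lack LXR sites. Only exact matches to each pattern were counted, so sites that depart from it were missed. The motifs were searched on both strands, and 0 pairs of matches to different motifs shared a base in the 35 promoters. A match is a run of letters, and none of these sites was measured here.

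Levels differed widely between the genes. Npc2, the soluble lysosomal protein that hands cholesterol to Npc1, was highest per length, at 139.97 ± 14.1 CPM per kilobase of exon in KO and 176 ± 31.9 in WT (SD, n = 3 each). The LXR receptor genes Nr1h2, at 30.8 ± 2.19 in KO and 29.99 ± 1.91 CPM per kilobase in WT, and Nr1h3, at 21.7 ± 7.42 in KO and 23.96 ± 2.63 CPM per kilobase in WT, came next. Among synthesis genes Ebp was highest per length, at 21.6 ± 0.513 CPM per kilobase in KO and 23.1 ± 1.28 in WT, and Lss was at 1.03 ± 0.261 CPM per kilobase in KO and 0.937 ± 0.101 in WT. Fdps was lowest of all 32, at 0.212 ± 0.0110 CPM per kilobase in KO and 0.311 ± 0.100 in WT. Of the 50-base stretches of the Fdps transcripts, 26.2% also occur in transcripts of other genes, so its reads can be dropped or split and its level is uncertain.

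The comparison of KO with WT asks whether sterol genes of the aneurysm differ where Olfr2 is missing. None of the 32 genes passed edgeR's quasi-likelihood test at an adjusted p under 0.05, against 0.0123% of the 16237 genes tested, which is 2 genes. By DESeq2's test 0 of the 32 passed, against 2.89% of genes. The smallest adjusted p was 0.263, for Srebf2. At an unadjusted p under 0.05 there were 4 of the 32, where 11.3% of all tested genes had such a p. They were Srebf2, Scap and Abcg1 with lower values in KO, where the share of all genes was 6.08%, and Acat2 with higher values, where it was 5.23%. For 6 of the 32 genes the ranges of the genotypes were apart, all with KO lower. Of tested genes 16.8% had ranges apart, 9.01% with KO lower and 7.83% with KO higher. The totals in both directions were near those of all genes, while the share with KO lower and ranges apart was 18.75% of the 32 against 9.01% of all genes, and 3 of these 6 genes were apart by less than 1 read. A lower mean in KO was found for 19 of the 32 genes and for 7930 of the 16237 genes tested. The median log2 fold change of KO over WT was -0.05 over the 32 genes and 0.006 over all tested genes. Of the 32, 22 lay within 0.2 of 0, against 58.0% of all tested genes. In bulk tissue, fewer cells of a type and less RNA per cell cannot be told apart.

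**Figure D1:**
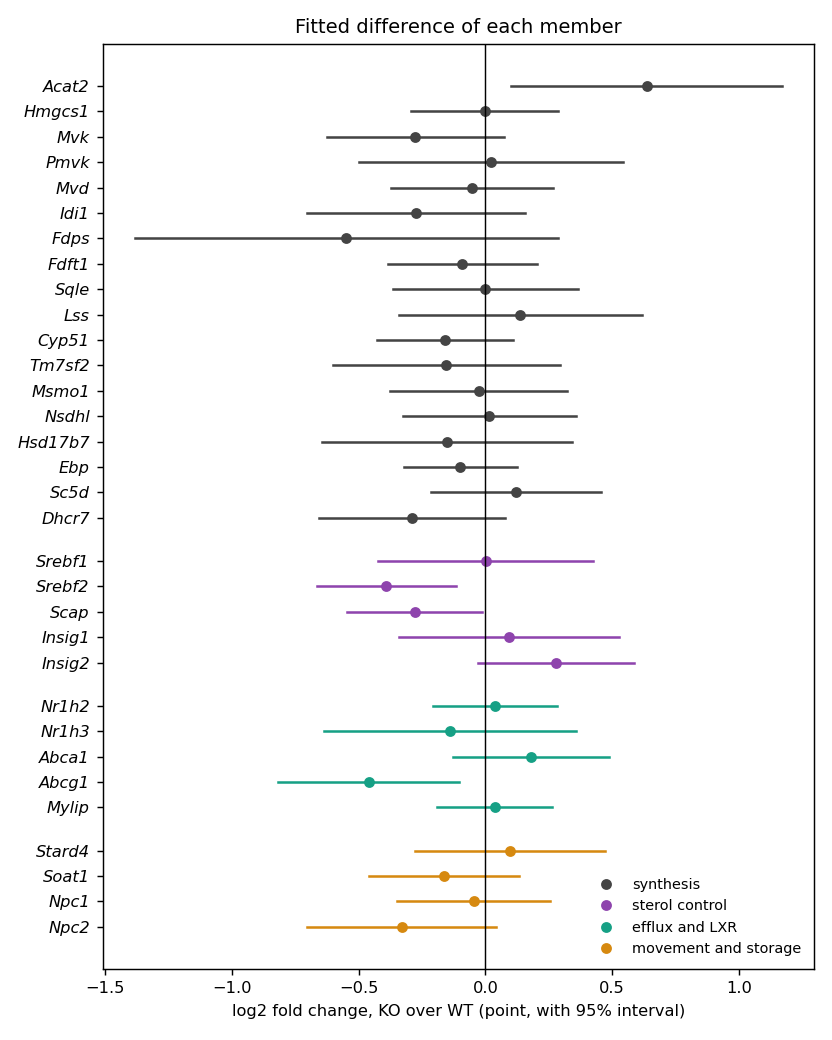
The plot gives the log2 fold change of KO over WT on the horizontal axis for each of the 32 genes, as a point with its 95% interval from edgeR's fit, coloured by role. Srebf2, Scap, Abcg1 and Acat2 have intervals that leave out 0 before any adjustment, and the points of the other 28 genes lie on both sides of 0.

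The enzymes that turn acetyl-CoA into isopentenyl units had overlapping or touching libraries, and Acat2, described further on, had the largest difference in means. Hmgcs1, which makes the precursor of mevalonate, stood at 45.4, 49.1 and 40.3 CPM in KO replicates 1 to 3 and at 47.8, 48.2 and 39.1 CPM in WT replicates 1 to 3. The groups overlapped, and the lowest library was WT replicate 3. Its log2 fold change was -0.004 (SE 0.13, 95% interval -0.29 to 0.28), which leaves room for a change of up to 1.22-fold upward. Reads can also come from a gene that overlaps it, since 12.1% of its exon bases are shared. Mvk, mevalonate kinase, stood at 15.7, 12.3 and 11.8 CPM in KO against 15.7, 16.4 and 15.9 CPM in WT. Its libraries did not overlap, but by 0.0447 CPM, which is less than 1 read in KO replicate 1. The log2 fold change of Mvk was -0.28 (SE 0.15, adjusted p = 0.561 by edgeR). Pmvk, the next kinase (log2 fold change 0.02, SE 0.23), and Mvd, the decarboxylase (-0.05, SE 0.14), had overlapping libraries. Idi1, which isomerises the isoprene unit, stood at 9.64, 11.2 and 8.345 CPM in KO and at 12.8, 12.97 and 9.44 CPM in WT. KO replicates 1 and 2 lay above WT replicate 3, and the log2 fold change was -0.27 (SE 0.19, adjusted p = 0.666 by edgeR). Of the 50-base stretches of the Idi1 transcripts, 25.3% also occur in transcripts of other genes, so its level is uncertain as well.

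The squalene steps also had libraries that overlapped or touched. Fdps, which makes farnesyl diphosphate, had 16, 18 and 18 counts in KO and 23, 29 and 16 counts in WT, so few that counting error is large, with a gap of 0.000102 CPM between the nearest libraries. Fdft1, squalene synthase, stood at 27.3, 29.4 and 23.6 CPM in KO and at 26.7, 30.9 and 27.8 CPM in WT, a log2 fold change of -0.09 (SE 0.13). The groups overlapped, and 18.3% of the exon bases of Fdft1 are shared with Ctsb, so part of its count may be reads of that gene. Sqle, squalene epoxidase and a rate-limiting step, stood at 25.1, 25.2 and 18.5 CPM in KO and at 20.8, 25.5 and 22.4 CPM in WT. KO replicate 3 was lowest, and the other KO libraries lay just under WT replicate 2, the highest. The 95% interval of its log2 fold change ran from -0.36 to 0.36. For Lss, which closes the ring to lanosterol, the log2 fold change was 0.14 (SE 0.21). Its KO libraries, at 13.9, 11.3 and 8.25 CPM, lay around the WT libraries at 11.1, 10.2 and 8.98 CPM.

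The enzymes that turn lanosterol into cholesterol had log2 fold changes between -0.29 and 0.12. Cyp51, lanosterol demethylase, stood at 41.9, 38.7 and 33.3 CPM in KO and at 43.3, 41.1 and 42.8 CPM in WT. One KO library lay above the lowest WT library, and the log2 fold change was -0.16 (SE 0.12, adjusted p = 0.692 by edgeR). Msmo1, Nsdhl and Hsd17b7, which remove methyl groups, had log2 fold changes of -0.03 (SE 0.15), 0.01 (SE 0.15) and -0.15 (SE 0.22). The reductase gene Tm7sf2 had -0.16 (SE 0.20), the desaturase gene Sc5d 0.12 (SE 0.15) and Dhcr7, the last reductase, -0.29 (SE 0.16, adjusted p = 0.561 by edgeR). Ebp, a sterol isomerase, stood at 50.95, 48.6 and 50.02 CPM in KO and at 52.5, 56.7 and 51.0 CPM in WT. Its libraries did not overlap, by 0.0454 CPM, again less than 1 read in KO replicate 1, and its log2 fold change was -0.10 (SE 0.10). Ebp, Mvk and Fdps are the 3 synthesis genes among the 6 whose libraries did not overlap, and none of these 3 had an unadjusted p under 0.05.

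**Figure D2:**
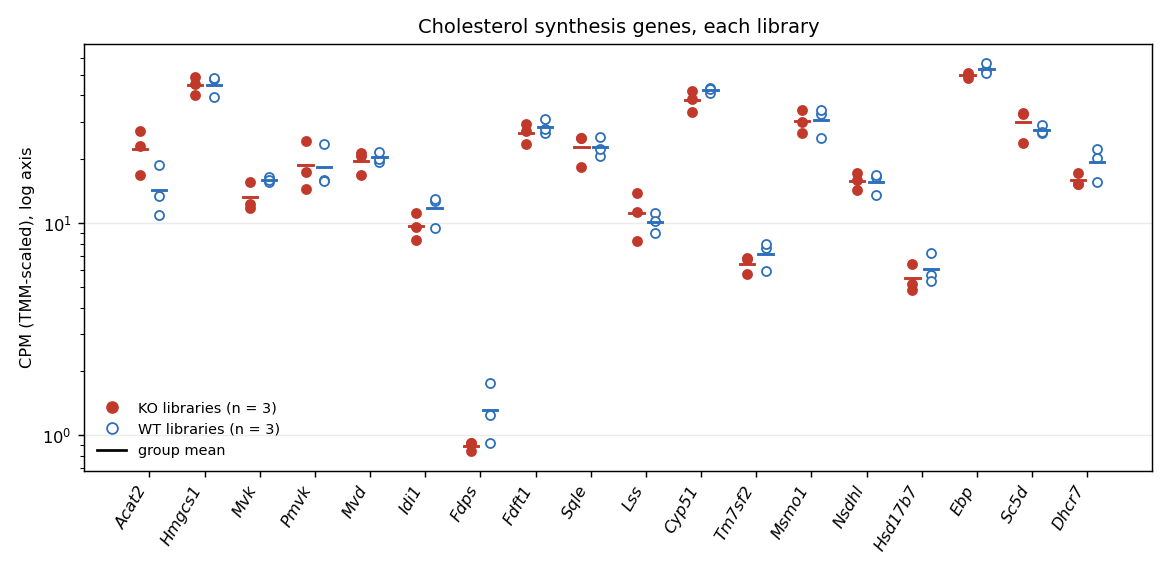
The plot shows CPM on a log axis for the 18 synthesis genes in pathway order, with filled points for the 3 KO libraries, open points for the 3 WT libraries and a bar for each group mean. The groups overlap or touch for every gene shown, and Acat2 has the widest gap between the means.

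Synthesis genes varied more among the KO libraries than between the genotypes. The mean log2 CPM of the 18 genes was 4.11, 4.08 and 3.82 in KO replicates 1 to 3, against 4.05, 4.12 and 4.02 in WT replicates 1 to 3. The means were 4.003 ± 0.16 in KO and 4.07 ± 0.05 in WT (SD, n = 3 each), a difference of -0.06 that is below the pooled SD of 0.12. KO replicate 3 was the lowest library for 11 of the 18 and the highest for 0, whereas it was lowest for 14.6% of all tested genes. This is the library with the high skeletal muscle markers, and its cell cycle markers also summed lowest, at 256 CPM against 339 and 340.1 CPM in the other KO libraries and 277 to 354 CPM in WT. Their part in the low synthesis values was not tested. The median log2 fold change of the synthesis genes was -0.07 with all libraries and -0.04 without KO replicate 3. It was -0.11 without KO replicate 1, -0.10 without KO replicate 2 and -0.10 without WT replicate 3. A lower mean in KO was found for 12 of the 18, where 7930 of all 16237 tested genes had one. The number of synthesis genes with a lower mean was 10 with library sizes alone and 13 with DESeq2 size factors. With a library left out it was 10 to 15.

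**Figure D3:**
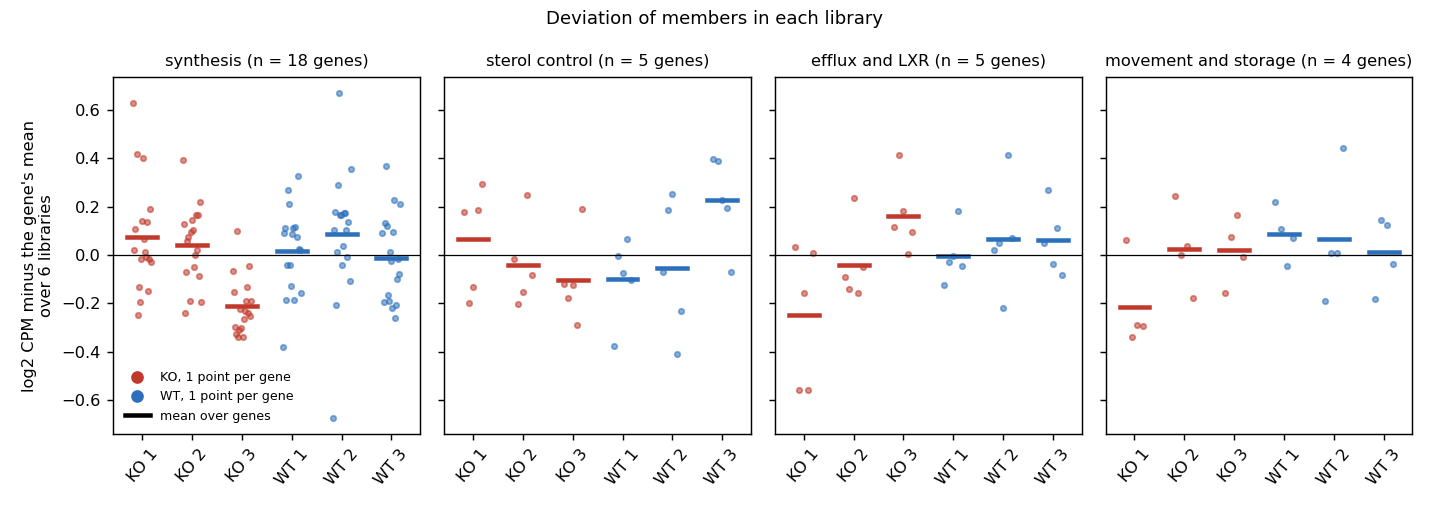
Each panel shows 1 role, with the 6 libraries along the horizontal axis and, on the vertical axis, each gene's log2 CPM minus its mean over the 6 libraries, 1 point per gene and a bar for the mean over genes. Synthesis genes lie low in KO replicate 3, at a mean of -0.21, and efflux genes lie low in KO replicate 1, at a mean of -0.25.

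Acat2 was the synthesis gene with the highest fold change. It encodes the cytosolic thiolase that joins acetyl-CoA units at the head of the pathway (ENSMUSG00000023832, chromosome 17, 12942890 to 12960747, minus strand, GRCm38). It stood at 27.3, 23.1 and 16.8 CPM in KO replicates 1 to 3 and at 13.5, 10.97 and 18.7 CPM in WT replicates 1 to 3. WT replicate 3 lay above KO replicate 3, so the groups overlapped. The log2 fold change was 0.64 (SE 0.24, 95% interval 0.10 to 1.17, adjusted p = 0.347 by edgeR), and it had an unadjusted p under 0.05 in 12 of 16 other settings. It was 0.47 if KO replicate 1 was left out and 0.87 if WT replicate 3 was. Of the 50-base stretches of its transcripts, 39.1% also occur in Acat3, a near-identical neighbour with 77, 66 and 45 counts in KO and 29, 17 and 38 counts in WT, so the 2 genes can trade reads and the level of Acat2 is uncertain.

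White adipocyte markers, a list of 15 genes, summed to 4020.3, 2614 and 2596 CPM in KO and to 555, 579 and 2340.1 CPM in WT, with no marker at 0. All 15 had higher means in KO, 9 with an unadjusted p under 0.05 and 0 past the adjusted threshold, and WT replicate 3 stood far above the other WT libraries. Acat2 was also highest among WT libraries in WT replicate 3, by a smaller margin. Brown adipocyte markers, a list of 8 genes, summed to 20.4, 80.6 and 25.9 CPM in KO and to 5.22, 4.49 and 16.5 CPM in WT, with KO replicate 2 highest. Genes of fatty acid synthesis that SREBP-1 is known to switch on were set beside them. Of the 12 genes, 10 had higher means in KO, where 8307 of all 16237 tested genes did. Among the 12, 0 passed and 3 had an unadjusted p under 0.05, all with higher values. Of all tested genes 5.23% had such a p with higher values. The 12 genes had a median log2 fold change of 0.67, beside -0.07 for the cholesterol synthesis genes. Me1, malic enzyme, stood at 70.8, 82.4 and 36.7 CPM in KO and at 25.5, 28.6 and 47.5 CPM in WT, and WT replicate 3 again lay above KO replicate 3. With no filter on low counts Me1 passed (adjusted p = 0.00875 by edgeR), and so did Acaca (adjusted p = 0.0204 by edgeR). Log2 fold changes were 0.81 (SE 0.31) for Acaca, acetyl-CoA carboxylase, and 0.60 (SE 0.26) for Acss2, which makes cytosolic acetyl-CoA from acetate. Whether fat cells carry the differences in Acat2, Me1, Acaca and Acss2 was not tested.

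**Figure D4:**
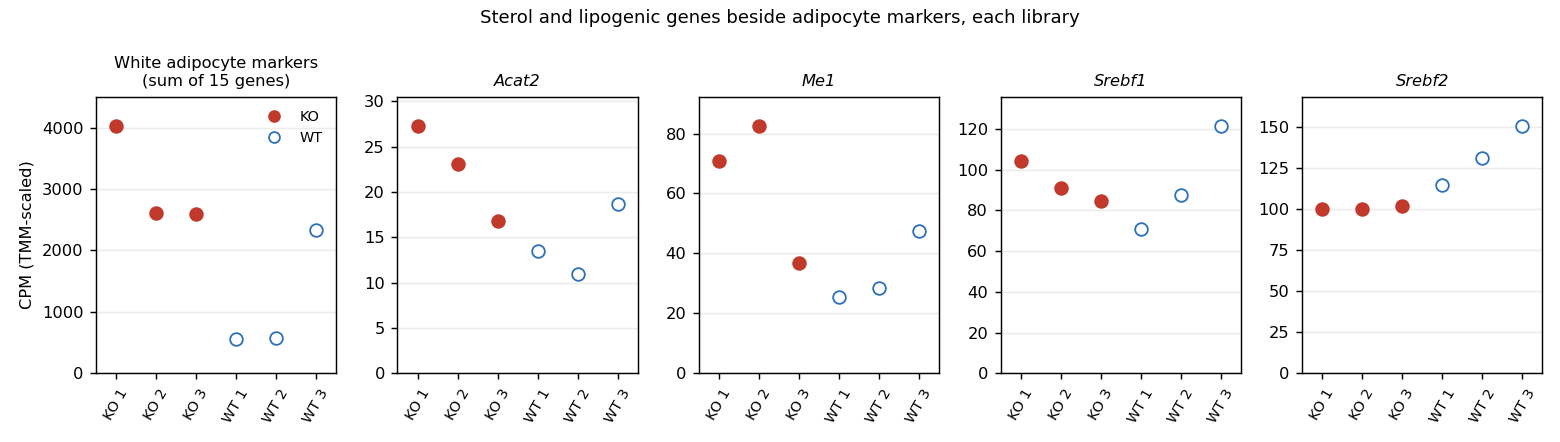
The panels show CPM on linear axes from 0 in the 3 KO libraries (filled) and the 3 WT libraries (open) for the sum of 15 white adipocyte markers and for Acat2, Me1, Srebf1 and Srebf2. WT replicate 3 is the highest WT library in all 5 panels, while the KO libraries of Srebf2 lie together near 100.2 CPM, below all WT libraries.

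Srebf2 had lower values in KO. The gene encodes SREBP-2, the main activator of cholesterol synthesis genes (ENSMUSG00000022463, chromosome 15, 82147181 to 82205379, plus strand, GRCm38). Its libraries stood at 100.2, 99.8 and 102 CPM in KO replicates 1 to 3 and at 115, 131 and 150.3 CPM in WT replicates 1 to 3. The KO libraries were nearly level and lay 12.99 CPM below the lowest WT library, and averaged 100.5 ± 0.909 CPM against 132 ± 17.9 CPM in the WT libraries (SD, n = 3 each). At 1746, 1951 and 2178 counts, counting error alone is larger than the SD of the KO libraries. Their closeness is thus not read as a trait of KO. The log2 fold change was -0.39 (SE 0.12, 95% interval -0.67 to -0.12, adjusted p = 0.263 by edgeR), so it did not pass. Its unadjusted p was under 0.05 in all 16 other settings, with log2 fold changes from -0.48 to -0.29, and its adjusted p lay between 0.120 and 0.518.

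Scap, the sterol sensor that escorts SREBP proteins, also had its KO libraries below its WT libraries (ENSMUSG00000032485, chromosome 9, 110333288 to 110384950, plus strand, GRCm38). It stood at 45.6, 44.8 and 45.8 CPM in KO and at 47.3, 59.5 and 58.5 CPM in WT. The KO libraries lay together, 1.52 CPM below WT replicate 1 and further below the other WT libraries. At 794, 876 and 983 counts, the spread of the KO libraries was again smaller than counting error alone. The log2 fold change was -0.28 (SE 0.12, adjusted p = 0.411 by edgeR), its unadjusted p was under 0.05 in 6 of 16 other settings, and 13.2% of its exon bases are shared with a neighbouring gene. Insig2, which retains Scap in the endoplasmic reticulum, had higher values, at 32.8, 25.2 and 30.4 CPM in KO and 24.8, 22.7 and 25.4 CPM in WT. KO replicate 2 lay below WT replicate 3, and the log2 fold change was 0.28 (SE 0.14, adjusted p = 0.496 by edgeR).

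Srebf1 and Insig1 had libraries that overlapped between the genotypes. Srebf1 encodes SREBP-1, the activator of fatty acid synthesis, with its isoforms counted as 1 gene. It stood at 104, 91.2 and 84.8 CPM in KO and at 70.99, 87.7 and 121 CPM in WT. The WT libraries enclosed all KO libraries, and the log2 fold change was 0.001 (SE 0.19, 95% interval -0.42 to 0.42). Insig1, itself switched on by SREBP, stood at 44.2, 46.2 and 31.7 CPM in KO and at 40.7, 29.2 and 44.4 CPM in WT. The groups overlapped throughout, with a log2 fold change of 0.09 (SE 0.19). Of the 5 sterol control genes 0 passed, and their median log2 fold change was 0.001, which was -0.16 without WT replicate 1 and 0.22 without WT replicate 3.

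The cholesterol transporters had opposite signs. Abcg1, which moves cholesterol to mature HDL particles, had lower values in KO (ENSMUSG00000024030, chromosome 17, 31057675 to 31117988, plus strand, GRCm38). Its libraries stood at 72.5, 96.0 and 107 CPM in KO and at 121, 143 and 116 CPM in WT. All KO libraries lay below all WT libraries, by 8.33 CPM between the nearest, and the KO libraries averaged 91.97 ± 17.8 CPM against 126.5 ± 14.2 CPM for WT (SD, n = 3 each). The log2 fold change was -0.46 (SE 0.16, 95% interval -0.82 to -0.10, adjusted p = 0.314 by edgeR), and it did not pass. Its unadjusted p was 0.05 or more in 2 of 16 other settings, where KO replicate 1 was left out (-0.32) and where WT replicate 2 was left out (-0.37). Abca1, which loads cholesterol onto lipid-poor apolipoprotein, stood at 181, 238 and 229 CPM in KO and at 201, 173 and 197 CPM in WT. KO replicate 1 lay within the WT range, and the log2 fold change was 0.18 (SE 0.14, 95% interval -0.13 to 0.49, adjusted p = 0.698 by edgeR). The difference between the transporters was not tested. T cell markers, a list of 8 genes, summed to 165, 205 and 185 CPM in KO and to 272, 329 and 276 CPM in WT, with none at 0. All 8 had lower means in KO and an unadjusted p under 0.05, 0 passed, and the genotypes did not overlap in this sum. Srebf2, Scap and Abcg1 are set beside it because their libraries did not overlap either. The smooth muscle, white adipocyte and brown adipocyte sums given above were higher in every KO library than in every WT library. The part of T cells, smooth muscle and fat cells in the values of Srebf2, Scap and Abcg1 was not tested.

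The LXR receptors and the LXR-induced ligase gene had overlapping libraries. Nr1h2, the widely expressed LXR beta gene, had a log2 fold change of 0.04 (SE 0.11). Nr1h3, LXR alpha, which macrophages and fat cells express, stood at 38.1, 50.9 and 74.9 CPM in KO and at 55.01, 58.1 and 67.7 CPM in WT. The KO libraries enclosed the WT libraries, and the log2 fold change was -0.14 (SE 0.22), which was 0.06 without KO replicate 1 and -0.44 without KO replicate 3. Mylip, a ubiquitin ligase that LXR induces and that removes lipoprotein receptors, stood at 66.6, 64.0 and 70.9 CPM in KO and at 64.3, 69.6 and 62.7 CPM in WT, with a log2 fold change of 0.04 (SE 0.10, 95% interval -0.19 to 0.26). Of the 5 efflux genes 0 passed and 1 had an unadjusted p under 0.05, and their median log2 fold change was 0.04.

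**Figure D5:**
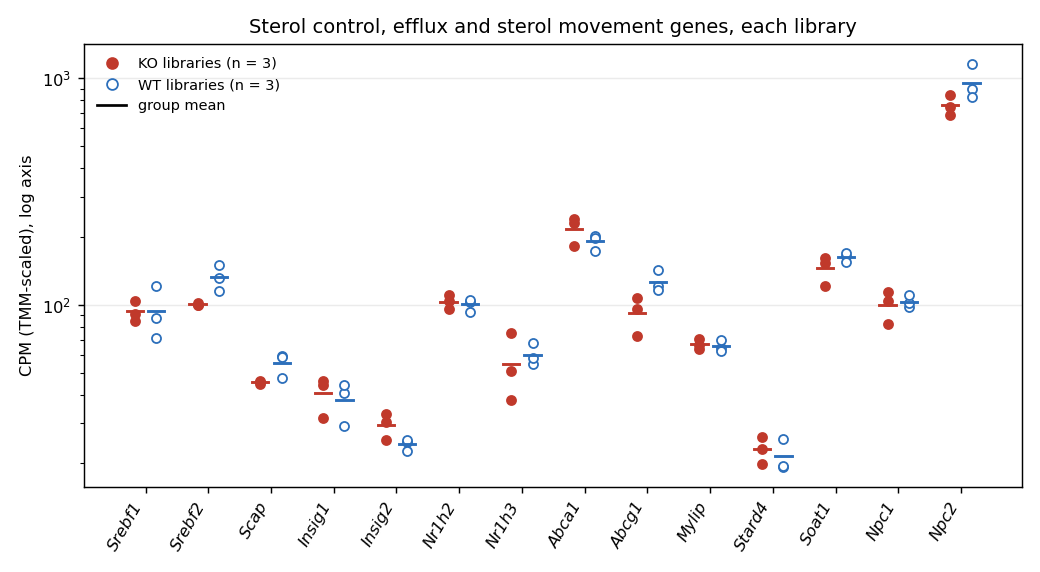
The plot shows CPM on a log axis for the 14 genes of sterol control, efflux, and sterol movement and storage, with filled points for the 3 KO libraries, open points for the 3 WT libraries and a bar for each group mean. Srebf2, Scap and Abcg1 are the genes whose KO points all lie below the WT points.

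KO replicate 1 was the lowest library for Nr1h3, Abcg1, Soat1, Npc1 and Npc2. In all it was lowest for 6 of the 32 genes, near its share of 19.3% among all tested genes. Soat1, which esterifies cholesterol for storage in droplets, stood at 121, 153 and 161 CPM in KO and at 165, 154 and 169 CPM in WT. KO replicate 1 stood apart from the other 5 libraries, and the log2 fold change was -0.16 (SE 0.13, adjusted p = 0.716 by edgeR). Npc1, the membrane protein that exports cholesterol from the lysosome, stood at 82.5, 103 and 113 CPM in KO and at 97.7, 101 and 109.99 CPM in WT. The groups overlapped, with a log2 fold change of -0.05 (SE 0.13). Npc2 stood at 691, 749 and 843 CPM in KO and at 892, 1154 and 826 CPM in WT. KO replicate 3 lay above WT replicate 3, and the log2 fold change was -0.33 (SE 0.16, adjusted p = 0.503 by edgeR). Stard4, which carries sterol through the cytosol and is itself switched on by SREBP-2, had a log2 fold change of 0.10 (SE 0.17). Macrophage markers, a list of 16 genes of which 10 had lower means in KO, 6 had higher means and 0 passed, summed to 10383, 12525 and 13936 CPM in KO and to 10924, 10663 and 12188 CPM in WT, with none at 0, and KO replicate 1 was lowest. Without Lyz2, a choice made after seeing the data, the sum was 6256, 6986 and 8037 CPM in KO and 7053, 10631 and 7557 CPM in WT. KO replicate 1 was still lowest and WT replicate 2 was now highest, as it was for Abcg1 and Npc2. A lowest sum in KO replicate 1 was not particular to macrophage markers. Fibroblast markers summed to 35831 CPM there and to 38563 to 55018 CPM in the other libraries. T cell markers summed to 165 CPM there and to 185 to 329 CPM in the others. The highest library was KO replicate 3 for Nr1h3 and Npc1, and WT replicate 3 for Soat1. Without WT replicate 2 the log2 fold change of Npc2 was -0.17. The part of macrophages, fibroblasts or T cells in the levels of Nr1h3, Abcg1, Soat1, Npc1 and Npc2 was not tested. The 4 genes of sterol movement and storage had a median log2 fold change of -0.11, which was 0.01 without KO replicate 1.

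Genes of the same pathway outside the group gave 0 calls as well. Of 11 tested genes that complete sterol synthesis, uptake and oxysterol formation, 8 had a lower mean in KO and 3 had an unadjusted p under 0.05, all with lower values. One of them was Cyp27a1, which makes an oxysterol that activates LXR, at 44.4, 42.5 and 38.8 CPM in KO and 53.0, 59.4 and 49.5 CPM in WT. All KO libraries lay lower (log2 fold change -0.37, SE 0.11, adjusted p = 0.267 by edgeR). Of 11 tested genes of SREBP transport and turnover, 8 had a lower mean and 1 an unadjusted p under 0.05, the ubiquitin ligase gene Rnf139 (log2 fold change -0.27, SE 0.12). Sec23a and Sar1b, parts of the vesicle coat that leaves the endoplasmic reticulum, both had log2 fold changes of 0.10. Of 12 tested LXR targets and partners, 9 had a lower mean, 2 had an unadjusted p under 0.05 with lower values and 1 with higher values. The lower ones were Pltp, phospholipid transfer protein (-0.54, SE 0.19, and -0.32 without WT replicate 2), and Abca7 (-0.30, SE 0.11), both with no overlap of libraries. The higher one was Apoc1, at 39.99, 23.0 and 31.3 CPM in KO and 4.84, 7.09 and 24.4 CPM in WT, where WT replicate 3 lay above KO replicate 2 and was also the highest WT library for fat cell markers. Apoc1 had a fold change of 1.38 on the log2 scale (SE 0.52, adjusted p = 0.351 by edgeR) and without WT replicate 3 it was 2.40 (adjusted p = 0.0136 by edgeR). With no filter on low counts it also passed (adjusted p = 0.00621 by edgeR). Of 13 tested genes of lysosomal and contact-site sterol transport, 8 had a higher mean and 1 an unadjusted p under 0.05, Stard3, which binds sterol on late endosomes, at 60.7, 55.4 and 73.3 CPM in KO and 77.9, 115 and 80.98 CPM in WT (log2 fold change -0.53, SE 0.17, adjusted p = 0.281 by edgeR, and -0.33 without WT replicate 2). Gramd1c (0.41, SE 0.27) and Anxa6 (-0.16, SE 0.10) came next in that list.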

How the data were processed

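RNA was selected on poly-T beads and primed with random hexamers, per the labels' protocols. The deposited table holds raw read counts per gene in 6 libraries, 3 KO and 3 WT, made with HISAT2 2.0.5, featureCounts 1.5.0-p3 and GRCm38, per the submitters' processing notes. The strand setting, annotation release and handling of reads that match several genes are unknown here, so reads of overlapping genes cannot be told apart.

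The counts were fitted with edgeR 4.0.16 in R 4.3.3. The filterByExpr function left 16237 of 54532 genes, TMM scaled the libraries, and KO was set against WT by the quasi-likelihood test. P-values were adjusted by Benjamini-Hochberg over the genes tested, and passing means an adjusted p under 0.05. A standard error is the size of the log2 fold change divided by the square root of F. List levels are means of log2 CPM with a prior count of 2. No pair of libraries agreed within sampling noise (chi-square of 25.6 or more per degree of freedom over genes with at least 20 counts). Positions, exon lengths and shared 50-base stretches came from GENCODE release M21 on GRCm38, and promoters from RefSeq on GRCm38.p6. Alternatives used DESeq2 1.42.0, limma-voom (limma 3.58.1), other scalings, filters and quasi-likelihood forms, a block for replicate number, and each library omitted in turn. The quasi-likelihood form without edgeR's legacy setting and the macrophage sum without Lyz2 were chosen after seeing the data. The legacy form, planned as an alternative, is the package default and so already the test used.

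The members and lists were chosen with earlier results of these data known. All 32 members were named. Values per library were given for members with an unadjusted p under 0.05, for those whose libraries do not overlap, and for a fixed panel. Lss, Mylip and Npc2 were added to these after their values were seen. Each further pathway list gave up to 3 genes by smallest p, and some of these genes are not reported here. Figures were drawn with matplotlib 3.10.9.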

Additional observations from a re-analysis of the deposited data

How the results depend on the processing

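Against 2 genes called in all, no filter on low counts gave 644, DESeq2 451, robust quasi-likelihood 1, limma-voom 0, the replicate block 0, and leaving out 1 library 0 to 155, highest without WT replicate 3. The cause was not tested. None of the 32 members was called under any of 16 alternatives. Same-numbered KO and WT libraries did not deviate together (correlations of -0.10, -0.06 and -0.12), and the test used did not pair them. With 3 libraries per genotype these correlations cannot exclude a pairing, and the labels name none. Members at an unadjusted p under 0.05 were 4, and 1 to 4 with a library left out: 1 without WT replicate 2 (Srebf2) and 2 without KO replicate 1 (Mvk and Srebf2). With a library left out, the median log2 fold change lay between -0.11 and -0.04 for synthesis and between -0.015 and 0.074 for efflux. It lay between -0.16 and 0.22 for sterol control and between -0.20 and 0.011 for movement and storage. Of 511 member values under the alternatives, 473 kept direction and side of the threshold and 38, in 13 members, changed sign.

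Hmgcs1 was 0.0098 with upper quartile factors and 0.033 with library size alone, where Msmo1 was 0.012. Sqle was -0.0025 with DESeq2 size factors, -0.0027 with DESeq2, -0.014 with limma-voom, -0.00027 with the newer quasi-likelihood form and -0.0088 with the replicate block. Srebf1 was -0.00198 with DESeq2 size factors and -0.00195 with DESeq2. With a library left out, log2 fold changes ran from -0.10 to 0.068 for Hmgcs1, -0.065 to 0.25 for Insig1, -0.053 to 0.31 for Lss, -0.15 to 0.059 for Msmo1, -0.12 to 0.046 for Mvd, -0.0058 to 0.080 for Mylip, -0.15 to 0.072 for Npc1, -0.015 to 0.095 for Nr1h2, -0.44 to 0.061 for Nr1h3, -0.077 to 0.082 for Nsdhl, -0.21 to 0.24 for Pmvk, -0.071 to 0.13 for Sqle and -0.16 to 0.24 for Srebf1. A filter at 1 CPM dropped Fdps, whose 16 to 29 counts limit its precision.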
